A study of Homo sapiens with 23 samples.

Results

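The alpha-globin and beta-globin loci are the gene clusters that supply the chains of haemoglobin. Their 10 genes are HBB, HBD, HBG1, HBG2 and HBE1 on chromosome 11 and HBA1, HBA2, HBZ, HBM and HBQ1 on chromosome 16. Peaks of every list were taken where they overlapped hg19 chr11:5220000-5330000, which holds the beta-globin genes and their locus control region, or chr16:140000-240000, which holds the alpha-globin genes and their upstream enhancers. The rule found 133 of the 1741457 peaks of the series, 43 at the beta-globin locus and 90 at the alpha-globin locus. A flank of 100 kb on each side of a locus was measured in the same way.

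The series mapped DNA replication start sites and chromatin binding in 2 established human cell lines, and the comparison at these loci is of K562 with HCT116. K562 is a chronic myelogenous leukemia line known for making embryonic and fetal globins, and HCT116 is a colon carcinoma line, a cell type in which globin genes are known to be silent. Start sites were mapped by sequencing nascent strands, the short new DNA that an RNA primer protects from lambda exonuclease. Binding was mapped by chromatin immunoprecipitation and sequencing for SIRT1 with a phosphate on T530 (pSIRT1), MCM2 with a phosphate on S139 (pMCM2) and histone H4 acetylated at lysine 16 (H4K16ac). In HCT116, the 4 nascent-strand libraries came from a SIRT1-depleted clone, from a depleted clone rescued with wild-type SIRT1, from a depleted clone rescued with the T530A mutant, and from wild-type cells that had 24 h of 200 nM aphidicolin, an inhibitor of replicative DNA polymerases, and then 24 h in fresh medium. The HCT116 pSIRT1, pMCM2 and H4K16ac libraries came from unsynchronised, untreated wild-type cells. In K562, nascent strands came from early, middle and late S fractions. The K562 pSIRT1 and pMCM2 libraries came from 5 elutriated fractions (G1, the early, middle and late parts of S, and G2), and 1 further pSIRT1 library came from unfractionated cells. Each group was 1 library and each altered HCT116 genotype 1 clone, so a difference has no replicate check, no test was possible and all comparisons below are between libraries. No untreated wild-type HCT116 nascent-strand list enters the comparison. The state of synchrony cannot be told apart from the cell line for nascent strands and pMCM2. RNA was not measured here, so globin expression was not checked.

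In the beta-globin cluster the genes stand in the order in which they are used in development, with HBE1, the embryonic gene, nearest to the locus control region, then the fetal genes HBG2 and HBG1, and then the adult genes HBD and HBB. The alpha-globin cluster runs from the embryonic gene HBZ through HBM to the paired adult genes HBA2 and HBA1 and to HBQ1, with enhancers that lie beyond HBZ within the housekeeping gene NPRL3. In the RefSeq annotation of GRCh38.p14, used for gene order alone, olfactory receptor genes of families 51 and 52 adjoin the beta-globin cluster on both sides, and the pseudogene HBBP1 and the non-coding gene BGLT3 lie between HBD and HBG1. On chromosome 16 the neighbours before the globin genes are POLR3K, SNRNP25, RHBDF1, MPG and NPRL3, those after them are LUC7L, FAM234A, RGS11, ARHGDIG, PDIA2 and AXIN1, and the pseudogenes HBZP1 and HBAP1 lie within the cluster. Origins are licensed in G1 by loading of the MCM helicase, of which MCM2 is a subunit, and only some licensed origins fire in a given S phase. SIRT1 is a deacetylase for which H4K16ac is a known substrate. The beta-globin locus holds one of the classically mapped human replication initiation regions, and it is known to replicate early in erythroid cells and late in many others.

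The promoter of 1 gene of each locus is shown, because of the 10 members only HBD and HBM matched the RefSeq promoter table of GRCh38.p14. The base composition of the 2 clusters was not computed, so the values below are of these promoters alone. The 250 bases before each gene start are printed on the gene's own strand, with the motif GATAA on either strand, the core of sites for erythroid GATA factors, in capitals.
HBD, minus strand of chromosome 11: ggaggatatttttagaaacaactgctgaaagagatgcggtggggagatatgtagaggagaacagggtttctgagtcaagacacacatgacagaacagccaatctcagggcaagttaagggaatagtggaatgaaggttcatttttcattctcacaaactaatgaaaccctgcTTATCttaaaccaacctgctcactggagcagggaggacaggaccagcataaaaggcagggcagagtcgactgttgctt
HBM, plus strand of chromosome 16: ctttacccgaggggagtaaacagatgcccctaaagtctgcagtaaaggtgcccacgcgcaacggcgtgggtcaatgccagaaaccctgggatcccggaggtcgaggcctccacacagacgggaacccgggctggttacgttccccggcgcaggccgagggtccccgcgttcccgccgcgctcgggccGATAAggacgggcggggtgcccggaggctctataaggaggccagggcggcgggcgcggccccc
The HBD promoter had 45.2% G and C and 2 CG pairs, while the HBM promoter had 69.2% and 27, against medians of 58.0% and 11 over 35116 promoters. Each held 1 GATAA on either strand, a motif found in 20.4% of all promoters of this length. HBD had 1 CCAAT and no TATAA, and HBM had 1 TATAA and no CCAAT, motifs found on either strand in 32.0% and 18.9% of promoters. A match is only a match of letters. The coordinates of these promoters are of another build than the peaks, so no peak below is placed on a gene.

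Covered percent is the share of an interval that lies under the peaks of 1 list. Relative cover is that percent divided by the percent of the genome that the same list covers, so that 1 is the genome level and long and short lists can be set side by side. The lists covered between 0.757% of the genome (K562 pSIRT1 of early S) and 12.7% (nascent strands of the depleted clone). Of the 21 lists, 15 had a peak at the beta-globin locus and 12 at the alpha-globin locus. For a background, every window of the locus length along the chromosomes that held a peak of any list was measured in the same way, which gave 25889 windows of 110 kb and 28459 of 100 kb. The number given with a peak is the authors' own value for it. In 18 lists this is a whole number, taken as a read count, and in 3 lists it is a score. The counts are not scaled for depth, which is unknown, so each value is used only within its own list.

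At the beta-globin locus, start sites were found in both cell lines, and the K562 and HCT116 lists overlapped in how much of the locus they covered. The 8 K562 nascent-strand peaks all lay where an HCT116 nascent-strand list also had a peak, against 69.0% of K562 nascent-strand peaks genome-wide. In the other direction, 7 of the 13 HCT116 peaks met a K562 peak, against 49.0% genome-wide. Relative cover was 0.962 in the depleted clone, 0.519 after wild-type rescue, 0.596 after T530A rescue and 0.948 after aphidicolin. In K562 early S had 1.09, while middle S had 0.0912 and late S 0.88. The middle S fraction was the lowest of the 7 lists and the early S fraction the highest, so the HCT116 values lay within the K562 range. In 23.2% of 110 kb windows every K562 list was above every HCT116 list, and in 19.4% every one was below, and the beta-globin locus was in neither set. The median over lists, taken as log2 after adding 0.01, was higher in K562 than in HCT116 by 0.22, beside a median of 0.02 over all windows with quartiles at -1.44 and 1.49. This direction turned with the 50% of peaks with the highest counts, with a locus shortened by 10 kb at each end, and without any 1 of 4 of the lists, so it is not read as a difference.

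Of the 3 early S peaks of K562, 1 met a late S peak. Early S had 3 peaks, at chr11:5223601-5225200 with 47 reads, at chr11:5245201-5247200 with 47 and at chr11:5305401-5308800 with 53. Middle S had 1 peak of 600 bp, at chr11:5256601-5257200 with 38 reads. Late S had 4 peaks, at chr11:5220201-5221800 with 47 reads, at chr11:5222801-5224600 with 63, at chr11:5256601-5256800 with 27 and at chr11:5271601-5274200 with 54. The early S peaks at chr11:5245201-5247200 and chr11:5305401-5308800 and the late S peaks at chr11:5220201-5221800 and chr11:5271601-5274200 were each seen in 1 K562 fraction. None of these 8 counts was high for its list: they ranged from the 0.8 to the 51.1 percentile. No start site of the locus was in all 3 K562 lists. How many K562 start sites genome-wide are shared between fractions was not computed, so these counts are not read as particular to the locus.

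In HCT116, no peak of the depleted clone overlapped a peak of the 2 rescued clones at the beta-globin locus. How often such peaks miss each other genome-wide was not computed, so this is not read as a trait of the locus. The depleted clone had 6 peaks spread from chr11:5221001-5224600 to chr11:5314401-5316000, with 62 to 152 reads, and the highest were chr11:5255601-5257000 with 152, chr11:5221001-5224600 with 102 and chr11:5246001-5248400 with 95. The wild-type rescue had 2 peaks, at chr11:5268001-5270400 with 86 reads and at chr11:5271401-5276000 with 189. The T530A rescue had 1 peak, at chr11:5268001-5275400, whose 247 reads put it at the 87.1 percentile of its list. After aphidicolin there were 4 peaks, of which those with most reads were chr11:5272801-5277800 with 189, chr11:5261801-5265000 with 115 and chr11:5299401-5301400 with 74. The first of them overlapped peaks of both rescues. The depleted clone had no peak between chr11:5257000 and chr11:5279401, the stretch that held every peak of both rescues. The counts of the 4 lists are not on 1 scale. No start site of the locus was in all 4, and the genome-wide share of sites in all 4 was not computed.

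**Figure D1:**
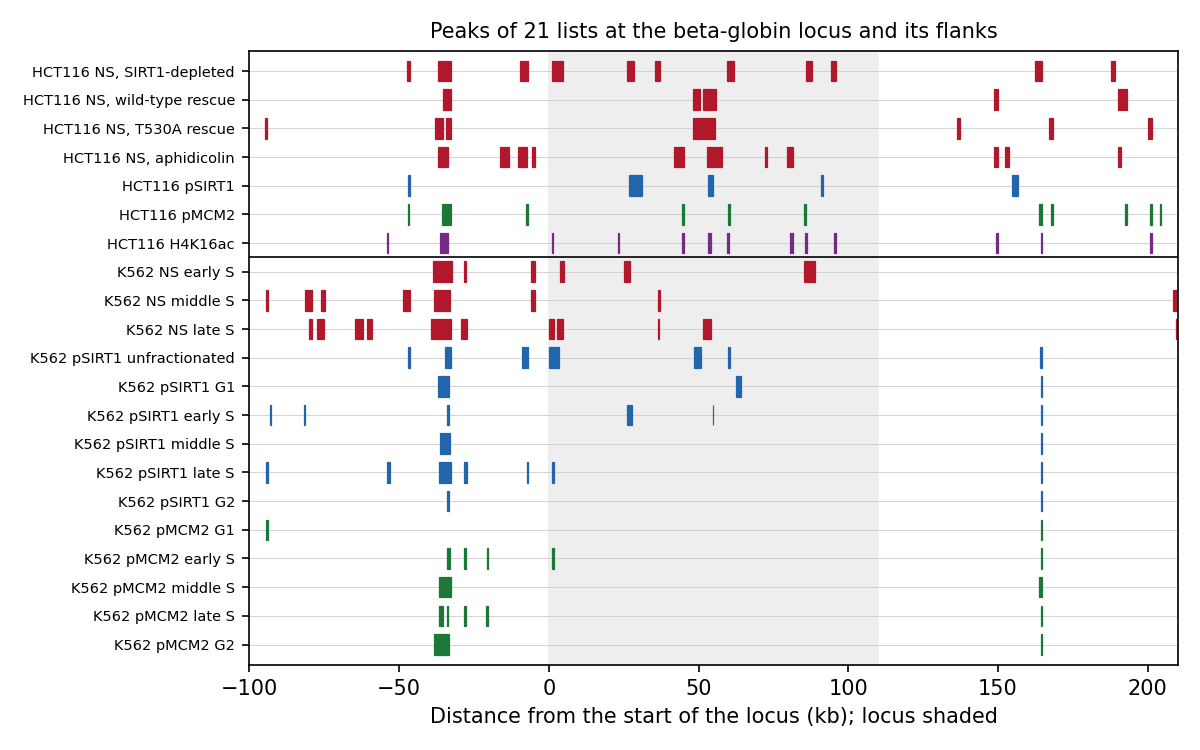
Peaks of the 21 lists (rows) along the beta-globin locus (shaded) and its flanks, with distance from the start of the locus in kb on the x axis; each bar is 1 peak, coloured red for nascent strands (NS), blue for pSIRT1, green for pMCM2 and purple for H4K16ac. The 2 rescues share a site near 53 kb where the depleted clone has no called peak, and how often this occurs genome-wide was not computed. The column of peaks near -35 kb in 19 lists lies outside the locus.

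Phosphorylated SIRT1 had 3 peaks at the beta-globin locus in HCT116 and 3 in unfractionated K562, and none of these overlapped between the lists. At least 3 peaks were held by 48.9% of windows in the HCT116 list and 45.4% in the K562 list. The HCT116 peaks were at chr11:5246801-5250999 with 331 reads, at chr11:5273201-5274999 with 42 and at chr11:5310801-5311599 with 31. The first of them was at the 97.9 percentile of its list, the highest standing of any peak at this locus. It overlapped a start site of the depleted clone at chr11:5246001-5248400 and the K562 early S start site at chr11:5245201-5247200. The peaks of unfractionated K562 were at chr11:5220201-5223400 with 31 reads, at chr11:5268401-5270800 with 32 and at chr11:5280001-5280400 with 16. None of the 3 met an HCT116 pSIRT1 peak, against 58.1% of unfractionated K562 peaks genome-wide. None of the 3 HCT116 peaks met one of unfractionated K562, against 43.8%. Over all 6 K562 pSIRT1 lists, 2 of the 3 HCT116 peaks met a K562 peak, against 77.0% genome-wide. Of the 3 unfractionated K562 peaks, 1 met a peak of a K562 fraction, against 67.1%. Relative cover was 0.798 in unfractionated K562 and 0.67 in HCT116, a ratio of 1.19. Unfractionated K562 was above HCT116 in 47.9% of 110 kb windows.

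Among the K562 fractions, pSIRT1 at the beta-globin locus was highest in early S. Relative cover was 0.258 in G1, 2.40 in early S and 0.0429 in late S, and middle S and G2 had no peak, which was the case for 28.0% of windows. The middle S and G2 lists hold decimal scores in place of read counts, and whether they were called like the others is not given. The G1 peak was chr11:5282601-5284200 and the late S peak chr11:5221201-5221600, with 18 reads each. The early S peaks were chr11:5246001-5247800 with 47 reads and chr11:5274801-5275000 with 9. The first early S peak overlapped the strongest HCT116 pSIRT1 peak and the K562 start site of early S. The early S value rests on 2.0 kb under peaks in a list that covered 0.757% of the genome with a median width of 400 bp, and 12.6% of windows had at least this relative cover in that list. Of the 7 K562 pSIRT1 peaks of the locus, 3 overlapped a K562 start site, against 31.3% genome-wide.

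Phosphorylated MCM2 covered a part of the beta-globin locus below the genome level in both lines. HCT116 had 3 peaks, a number that 69.1% of windows reached, and a relative cover of 0.294, reached by 69.0%. The peaks were at chr11:5264401-5265200 with 24 reads, at chr11:5279801-5280400 with 96 and at chr11:5305401-5306000 with 34. In K562 the early S fraction had 1 peak, at chr11:5221001-5221600 with 9 reads and a relative cover of 0.335, which is the median of all windows, and the other 4 fractions had none. At least 4 of the 5 K562 lists lacked a peak in 20.6% of windows. Every K562 list was below HCT116 in 25.0% of windows and above it in 7.81%, and with the early S value above that of HCT116 the locus was in neither set. Each of the 3 HCT116 pMCM2 peaks overlapped a start site of at least 1 of the 4 HCT116 nascent-strand lists, against 67.9% genome-wide. Those start sites were of the depleted clone or of aphidicolin, and none was of a rescue. The pMCM2 library came from untreated wild-type cells, which have no nascent-strand list here. Each of the 3 also overlapped an H4K16ac peak, against 66.0%. None of the 3 HCT116 pSIRT1 peaks met a pMCM2 peak, against 53.1% genome-wide.

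H4K16ac, mapped in HCT116 only, covered 4.88% of the beta-globin locus in 8 peaks, a relative cover of 0.387 that 48.5% of windows reached. Of the 8 peaks, 7 overlapped a start site of any HCT116 nascent-strand list, against 64.3% genome-wide. Among them, only chr11:5273072-5274196 met a start site of the rescues, and the others met those of the depleted clone or of aphidicolin alone. The peak with the highest score within its list, 64, was at chr11:5279460-5280288, where the depleted clone had a start site and HCT116 a pMCM2 peak. The next were chr11:5243032-5243317 with a score of 56 and chr11:5221128-5221331 with 52.

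Sites marked by several kinds of library were few at the beta-globin locus. Of its 110 bins of 1 kb, 49 had a peak of any list and 3 of those had peaks of 5 or more lists, which is 6.12% of them, against 33.5% of such bins genome-wide. The site at chr11:5273001-5275000 was in 7 lists: the 2 rescues, aphidicolin, K562 nascent strands of late S, HCT116 pSIRT1, H4K16ac and K562 pSIRT1 of early S. The site at chr11:5221001-5222000 was in 6 lists, among them nascent strands of the depleted clone and of K562 late S, H4K16ac and 3 K562 binding lists.

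The flanks of the beta-globin locus, where olfactory receptor genes lie by the GRCh38.p14 gene order, held sites that far more lists marked than any within the locus. At chr11:5182001-5188000, on the HBB side, 19 of the 21 lists had a peak, all 4 HCT116 and all 3 K562 nascent-strand lists among them. The K562 peaks there had 301 reads in early S, 433 in middle S and 365 in late S, at the 98.3, 98.4 and 99.0 percentiles of their lists. On the other side, chr11:5384001-5385000 was marked by 14 lists, among them all 11 K562 binding lists, with 1 HCT116 and no K562 nascent-strand list. In most of these K562 lists, of both antibodies, the peak was the same 200 bp, chr11:5384401-5384600, with a high value for its width. For pSIRT1 of late S, reads per kb were at the 99.6 percentile. Whether it is a site of binding or of mapping was not tested. K562 relative cover by nascent strands in the flank on the HBB side was 1.44, 2.31 and 2.59 in early, middle and late S, and on the far side 0, 0.234 and 0.0624. The corresponding HCT116 values were 0.196 to 0.985 and 0.284 to 0.386. Set against both flanks together, the locus was higher in all 4 HCT116 lists and in K562 early S, and lower in K562 middle and late S.

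**Figure D2:**
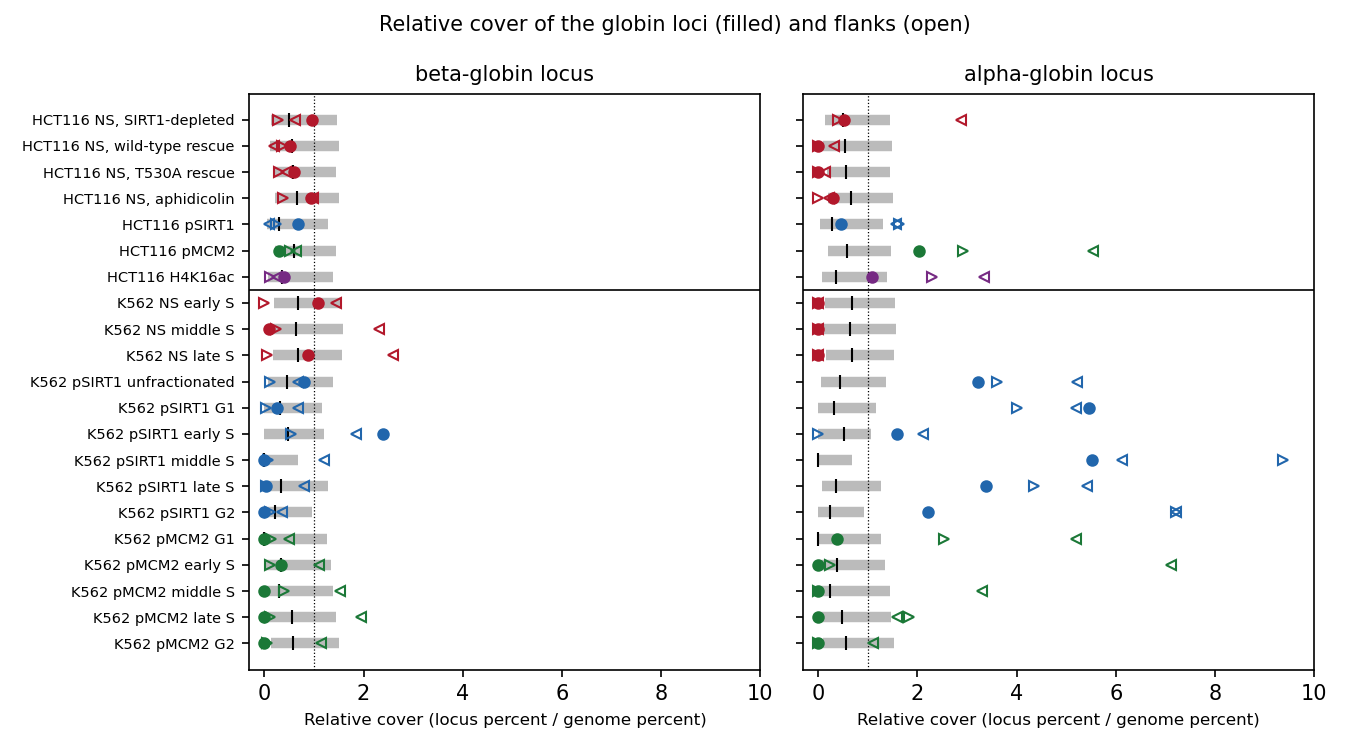
Relative cover (x axis, covered percent of the interval over that of the genome) of each list (rows) at the beta-globin locus (left) and alpha-globin locus (right): filled circles are the locus, left- and right-pointing open triangles the flanks before and after it, grey bars the quartile range and black ticks the median of all windows of the locus length. The 6 K562 pSIRT1 lists lie above 1 at the alpha-globin locus, where all 3 K562 nascent-strand lists are at 0.

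At the alpha-globin locus, K562 had pSIRT1 peaks and no nascent-strand peak. None of the 3 K562 nascent-strand lists had a peak there, while 89.0% of 100 kb windows held a peak of at least 1 of them. All 6 K562 pSIRT1 lists covered the locus above their genome level, which held for 11.4% of windows. No K562 nascent-strand peak and all 6 lists above 1 held together in 0.945% of windows, a pair of conditions chosen after the values were seen. K562 had no nascent-strand peak at the locus or in its flanks, so none of its 49 pSIRT1 peaks there could overlap one.

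In HCT116, start sites of the alpha-globin locus appeared in 2 of the 4 lists. The depleted clone had 6 peaks, at chr16:138601-140600 with 69 reads, chr16:147601-148200 with 29, chr16:212601-214000 with 72, chr16:216401-217200 with 42, chr16:218201-220200 with 84 and chr16:225201-226400 with 66. They covered 6.6% of the locus, a relative cover of 0.521, and none was above the 36.8 percentile of its list. After aphidicolin there were 2 peaks, at chr16:173201-174200 with 52 reads and chr16:223801-225800 with 63, which covered 3.0%, a relative cover of 0.29. Neither rescue had a peak, as in 12.0% of windows. Peaks in the depleted and aphidicolin lists and none in both rescues were found in 1.89% of windows, a pattern also chosen after the values were seen. The depleted clone and aphidicolin peaks overlapped at chr16:225201-225800.

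The lack of K562 nascent-strand peaks was not limited to the globin genes but ran from the end of the short arm of chromosome 16 past both flanks. The first peak of any list on the chromosome began at chr16:60201, in the depleted clone, and the first K562 nascent-strand peaks at chr16:516601 in middle S and chr16:517201 in early and late S. This stretch of 456.4 kb, measured from the first peak of any list, was the longest of the 23 chromosomes measured, whose median was 9.8 kb. HCT116 nascent strands, measured from the same first peak of any list, gave a median of 0.2 kb. On chromosome 16 that first peak was of the depleted clone. Over the whole of chromosome 16, relative cover by K562 nascent strands was 1.08, 1.19 and 1.0 in early, middle and late S. In the same stretch of the short arm, HCT116 nascent-strand lists held 18 peaks in the depleted clone, 1 after wild-type rescue, 2 after T530A rescue and 4 after aphidicolin. Relative cover of the stretch was 1.08, 0.068, 0.062 and 0.14 in that order. Past the locus, the next peak lay 69.8 kb on in the depleted clone and 556.0 kb on after wild-type rescue. It lay 271.8 kb on after T530A rescue and after aphidicolin, and 276.6 to 277.2 kb on in K562. The K562 pSIRT1 lists held 9 to 68 peaks there and the K562 pMCM2 lists 5 to 8. The peak lists do not show why K562 nascent-strand peaks are lacking there, and the cause was not tested, so the gap is one of called peaks and is not read as a lack of replication start sites.

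**Figure D3:**
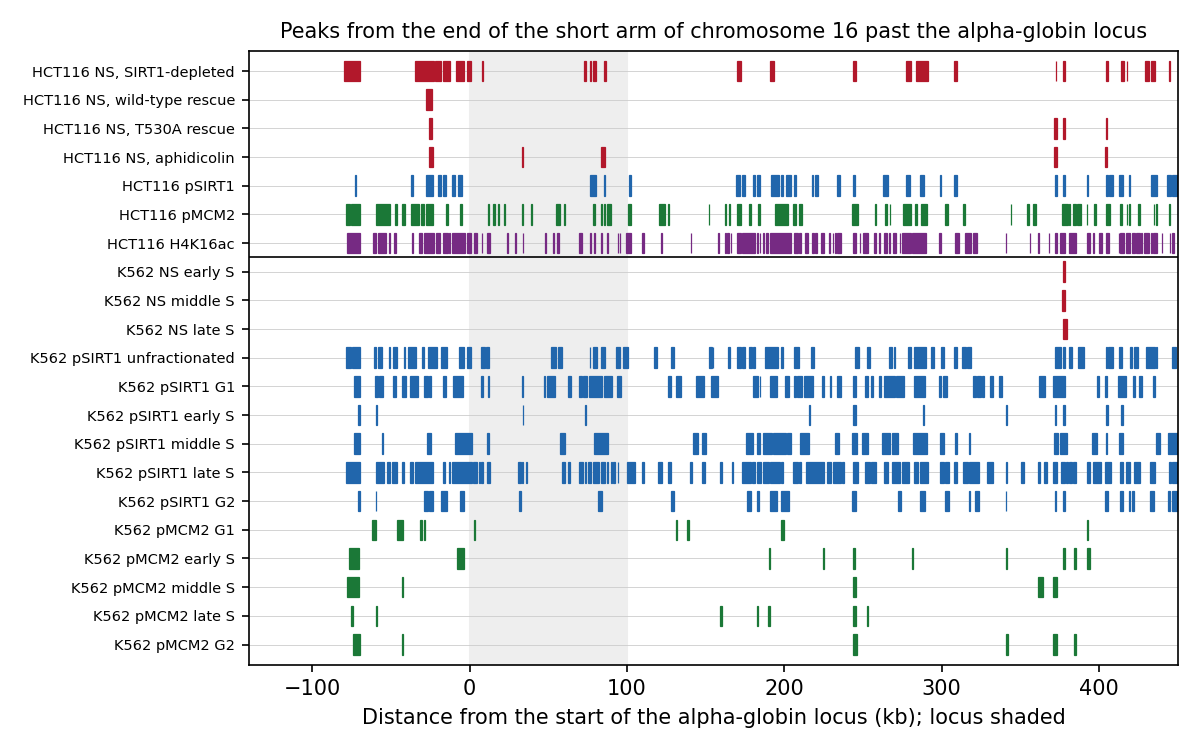
Peaks of the 21 lists (rows) from the end of the short arm of chromosome 16 past the alpha-globin locus (shaded), with distance from the start of the locus in kb on the x axis; colours are red for nascent strands (NS), blue for pSIRT1, green for pMCM2 and purple for H4K16ac. The 3 K562 nascent-strand rows are empty up to their first peaks, 276.6 kb or more past the end of the locus, while the K562 pSIRT1 rows are filled.

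Phosphorylated SIRT1 covered more of the alpha-globin locus in K562 than in HCT116. Unfractionated K562 had 10 peaks with 16 to 47 reads that covered 22% of the locus, and HCT116 had 2 peaks that covered 4.2%, at chr16:216801-220599 with 54 reads and chr16:225401-225799 with 22. Relative cover was 3.22 against 0.455, a ratio of 7.07, and 3.58% of windows had a ratio at least as high. The direction alone, K562 above HCT116, held in 47.1% of windows. Both HCT116 peaks met a peak of unfractionated K562, against 43.8% genome-wide, and 2 of the 10 peaks of unfractionated K562 met an HCT116 peak, against 58.1%. The highest of the 10 were chr16:150601-152400 and chr16:223401-226200, with 47 reads each, and chr16:191401-195000, with 45. All 10 overlapped a peak of at least 1 K562 fraction, against 67.1% genome-wide.

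The K562 fractions differed in how much of the alpha-globin locus pSIRT1 covered. Relative cover was highest in middle S, at 5.52, and in G1, at 5.45, then 3.37 for late S, 2.21 for G2 and 1.59 for early S. By covered percent the order was another, with 30.8% in G1, 28.6% in late S, 14.6% in middle S, 3.8% in G2 and 1.2% in early S. The middle S list covered 2.65% of the genome, against 5.65% for G1 and 8.48% for late S. Here too, the middle S and G2 lists hold scores and may not have been called like the others. These values were reached by 6.15% of windows in middle S, 4.62% in G1, 10.1% in late S, 12.0% in G2 and 20.7% in early S. Early S, with 2 peaks of 600 bp, at chr16:173601-174200 with 10 reads and chr16:213201-213800 with 33, was the lowest, and at the beta-globin locus it was the highest. G1 had 11 peaks that covered 30.8%, and its widest, chr16:215601-224400 with 110 reads, stood at the 95.7 percentile of its list. The next in count were chr16:225201-230800 with 62 reads and chr16:189401-194400 with 34. Late S had 20 peaks that covered 28.6%, and 0.545% of windows held as many. Its strongest, chr16:129001-141200 with 606 reads, lay mostly in the flank, and within the locus the highest were chr16:223201-225800 with 124 and chr16:218601-222400 with 120. Middle S had 4 peaks, of which chr16:130601-141400 (score 176.2) and chr16:218801-228200 (score 133.7) were the highest, followed by chr16:151201-152000 (score 38.0). G2 had 2 peaks, at chr16:171401-172400 (score 31.0) and chr16:221601-224400 (score 52.5). Of the 11 G1 peaks, 9 overlapped a late S peak, against 70.2% genome-wide, and of the 20 late S peaks 13 overlapped a G1 peak, against 44.5%.

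The pSIRT1 cover of the alpha-globin locus was not set apart from its flanks, which had more in 4 of the 6 K562 lists. The flank before the locus begins at chr16:40000, and no list had a peak before chr16:60201. The flank values of every list therefore include that empty stretch. In unfractionated K562, relative cover was 4.40 in both flanks together and 3.22 in the locus. The locus was above its flanks in the G1 and early S fractions and below them in middle S, late S and G2. HCT116 pSIRT1 was also higher in the flanks, at 1.59, than in the locus, at 0.455. From the first peak of any list to the first K562 start site, relative cover by pSIRT1 was 2.03 to 8.28 over the 6 K562 lists and 1.27 in HCT116.

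**Figure D4:**
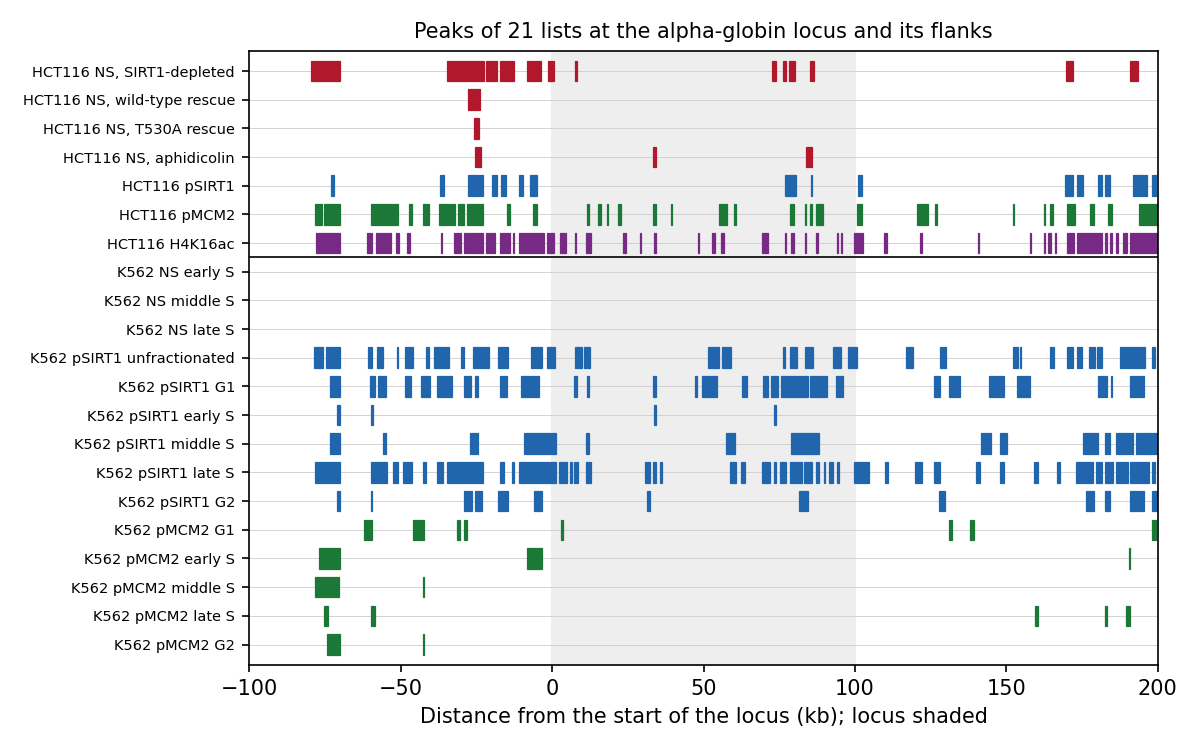
Peaks of the 21 lists (rows) along the alpha-globin locus (shaded) and its flanks, with distance from the start of the locus in kb on the x axis; colours are red for nascent strands (NS), blue for pSIRT1, green for pMCM2 and purple for H4K16ac. Peaks of HCT116 and K562 pSIRT1, HCT116 pMCM2 and H4K16ac gather between 76 and 86 kb, and the K562 pMCM2 rows hold 1 peak within the locus.

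Phosphorylated MCM2 covered more of the alpha-globin locus in HCT116 than in K562. HCT116 had 12 peaks that covered 12.6% of the locus, a relative cover of 2.04 that 17.0% of windows reached. The highest were chr16:155001-156200 with 127 reads, chr16:151401-152200 with 106 and chr16:173201-174200 with 94. In K562 the G1 fraction had 1 peak, at chr16:143001-143600 with 15 reads and a relative cover of 0.38, and the fractions of S and G2 had none. Every K562 list was below HCT116 here, as in 25.1% of windows (every one was above in 7.38%), and at least 4 of the 5 K562 lists lacked a peak in 23.0%. Windows in which 4 or more K562 lists lacked a peak while HCT116 had 12 or more were 0.105% of all, a condition chosen after the values were seen. The 5 K562 pMCM2 lists held 19 peaks in the 2 flanks. The nearest lay 3.4 kb before the locus, in early S, and in the other 4 lists the nearest was 28.2 to 58.6 kb away. Relative cover was 1.10 to 7.12 in the flank before the locus, with the stretch before chr16:60201, empty in every list, counted in. In the flank after it, middle S and G2 had 0, early S 0.245, late S 1.82 and G1 2.53. HCT116 pMCM2 was also higher in both flanks together, at 4.22, than in the locus, at 2.04.

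Of the 12 HCT116 pMCM2 peaks of the alpha-globin locus, 4 overlapped an HCT116 start site, against 67.9% genome-wide, and 6 an H4K16ac peak, against 66.0%. Of the same 12 peaks, 8 met a K562 pSIRT1 peak, against 61.1%. The HCT116 start sites of this locus were all of the depleted clone or of aphidicolin, while the binding libraries came from untreated wild-type cells. With so few peaks and no replicate, these counts are descriptions of 1 locus.

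H4K16ac had 18 peaks at the alpha-globin locus in HCT116, a number reached by 15.0% of windows. They covered 13.8% of it, a relative cover of 1.09 that 29.0% of windows reached. The highest scores were at chr16:138436-140749 with 92, chr16:142571-144412 with 83 and chr16:173723-174190 with 78. Of the 18 peaks, 6 overlapped an HCT116 start site, against 64.3% genome-wide, and 7 a pMCM2 peak, against 37.6%. The flanks were higher, with a relative cover of 2.82.

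More bins of the alpha-globin locus were marked by several kinds of library than of the beta-globin locus. Of its 100 bins of 1 kb, 78 had a peak of any list and 15 of those had 5 or more lists, 19.2% of them, against 33.5% genome-wide. The stretch chr16:223001-226000 was marked along its 3 kb by 10 lists, with at most 8 of them in any 1 bin. They were nascent strands of the depleted clone and after aphidicolin, all 3 HCT116 binding lists and every K562 pSIRT1 list except early S. The stretch chr16:216001-221000 was marked by 8, with the depleted clone as the only nascent-strand list. At chr16:173001-175000, the start site seen after aphidicolin lay with HCT116 pMCM2, H4K16ac and K562 pSIRT1 of G1, early S and late S. At chr16:151001-153000, 6 lists met without a nascent-strand list.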

How the data were processed

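The 21 peak lists each come from 1 library; 2 libraries of sheared genomic DNA were not used here. Coordinates are hg19, per the submitters' processing notes, which name MACS and SICER without versions. Aligner and settings: not given in the sources used here. In 18 lists the value deposited with a peak is a whole number, taken as a read count. For K562 pSIRT1 in middle S and in G2 the authors gave a decimal score, and for H4K16ac a peak score; its deposited fold enrichment and −log10 p and q columns were not used. Each is the authors' own value per peak and was used to describe or rank peaks within a list.

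Peaks on chromosomes 1 to 22 and X were merged within a list. Overlap meant 1 bp or more. Differences are medians of log2 relative cover (0.01 added), K562 minus HCT116. With 1 library per group there is no test; depth is unknown, so no interval was given. Cover and counts were tested on simulated data. The text names, per locus and list, the 3 peaks with the highest values and sites of all lists of 1 cell line; further peaks were named after their values were seen. Peaks per gene were not computed, because the annotation used here is not of hg19. The members and lists were chosen with earlier results of these data known. Scripts ran under Python 3.11.15 with pandas 2.3.3, numpy 2.4.6 and, for plots, matplotlib 3.10.9.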

Additional observations from a re-analysis of the deposited data

How the results depend on the processing

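Over 30 settings other than leaving out a list, 2 turned the direction of a result, both for nascent strands at the beta-globin locus. That log2 difference, K562 minus HCT116, was 0.22 as reported, -5.91 with the 50% of peaks with the highest values, -0.69 with the locus shortened by 10 kb at each end, 0.47 with equal list lengths and 0.30 with the number of peaks. Leaving out each of 7 lists gave -1.34 to 0.55 and turned it 4 times, to -1.34 without K562 early S, -1.19 without K562 late S and -0.11 without either rescue. Where a list has no peak, the size below is set by the 0.01 added. At the alpha-globin locus the nascent-strand difference was -2.45 as reported, 0 with the higher-valued peaks or equal lengths, -2.61 with the shortened locus, -3.00 with the number of peaks and -4.91 to 0 without 1 list; it was 0 without the depleted clone or without aphidicolin. The pSIRT1 difference at the beta-globin locus, 0.25, was 0.96, 0.33 and 0.34 with the higher-valued peaks, equal lengths and the number of peaks. At the alpha-globin locus, 2.79 became 3.04, 2.84 and 2.64, and 2.73 with only peaks that lay at least 50% inside. The pMCM2 difference was -4.93 at the beta-globin locus and became -3.81, 0 and -5.80 with the same 3 settings, and -7.68 at the alpha-globin locus, where they gave -7.96, -6.07 and -7.91. Against the flanks, the beta-globin nascent-strand difference of -1.36 was -7.72 with the higher-valued peaks, -1.10 with flanks of 50 kb and -2.90 to -0.77 without 1 list. The alpha-globin one, 2.32, was 0, 2.96 and 1.63 to 3.02, and reflects that K562 had no peak in locus or flanks. The cause of these changes was not tested. No paired analysis was possible because each group has 1 library and no result comes from a test. Peaks per gene and their 3 alternatives were not run, because no annotation of hg19 was used here. Depth is unknown, so that a place without a peak may be one below the calling threshold of its library.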
